A study of Homo sapiens with 8 samples.

Results

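Basal and simple-epithelium keratins were followed across 8 RNA-seq libraries labelled as HSC3, an established line of human oral squamous cell carcinoma. The 7 genes were taken by name from the 63241 gene rows of the deposited count table: KRT5, KRT14 and KRT15 as the 3 basal keratins, and KRT7, KRT8, KRT18 and KRT19 as the 4 simple-epithelium keratins. Per the labels, 4 libraries (knockdown 1 to 4) came from cells transfected with an siRNA against COL1A1 and 4 (control 1 to 4) from cells given a non-targeting siRNA. Every culture received 100 pmol of siRNA with the same lipid reagent and was collected after 48 hours. The labels give the same cell line for all 8 libraries and do not tie them to separate cultures, so each p-value below speaks only to the spread between these libraries. Judging by its title, the study asked how COL1A1 loss bears on epithelial-mesenchymal transition, migration and invasion.

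Keratins are the intermediate filament proteins of epithelial cells, and a filament is built from pairs of a type I and a type II chain. KRT5 (type II) and KRT14 (type I) are the pair of the basal, dividing layer of stratified epithelia such as oral mucosa and skin, where KRT15 is a further type I chain of basal cells. KRT8 (type II) and KRT18 (type I) are the pair of single-layered epithelia, and KRT7 (type II) and KRT19 (type I) are common in ducts and glands. KRT19 is also known from the basal layer of non-keratinised oral epithelium, and KRT8, KRT18 and KRT19 are often found in squamous carcinoma cells.

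The libraries differed in ways the labels do not give, and these differences touch every result below. Levels are given as CPM, a gene's counts scaled to an equal total count in every library. COL1A1, the siRNA target, stood at 368, 123, 301 and 155 CPM in knockdown 1 to 4, and at 88.9, 8183, 476 and 689 CPM in control 1 to 4. The log2 fold change was -2.97 (SE 1.3, edgeR unadjusted p = 0.0484, adjusted p = 0.981), and 4.78% of all tested genes had an unadjusted p under 0.05. Control 1 lay below every knockdown library, so the groups overlapped and COL1A1 does not follow the labels in that library. The knockdown and control libraries are therefore named by their labels throughout. All 10 markers of basal squamous epithelium that were looked at, KRT5, KRT14 and KRT15 among them, stood above 1 CPM in every library. Their sum ran from 1020 CPM in control 1 to 56664 CPM in knockdown 1. The same mark was passed in every library by 7 of 11 markers of simple or glandular epithelium and 6 of 7 fibroblast markers. It was also passed in every library by 3 of 5 endothelial markers and 4 of 6 leukocyte markers. Transcripts of skeletal muscle and salivary gland were present as well. Skeletal muscle genes (17 listed) took 0.00471% to 4.76% of counts in the knockdown libraries and 0.00402% to 15.1% in the control libraries, and exceeded 1% in knockdown 2, knockdown 4, control 1 and control 3. Salivary gland secretory genes (19 listed) exceeded 1% of counts in knockdown 2 and control 1 and took at most 0.00496% in the other libraries. Whether every library holds RNA of the labelled cells alone was not tested, so a keratin value below is that of the library and not of HSC3 cells as such. In these bulk libraries, fewer cells of a type and less RNA per cell cannot be told apart. Total counts ran from 30684584 to 61795990 per library. The molecule is labelled polyA RNA, whereas the labels' extraction protocol is one of ribosomal RNA depletion.

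The 7 genes lie in the type II keratin cluster of chromosome 12 and the type I cluster of chromosome 17. In GENCODE release 29 (GRCh38), KRT5 (ENSG00000186081.12) is at chr12:52514575-52520687 on the minus strand, KRT7 (ENSG00000135480.17) at chr12:52232520-52252186 on the plus strand, KRT8 (ENSG00000170421.13) at chr12:52897187-52949954 on the minus strand and KRT18 (ENSG00000111057.11) at chr12:52948871-52952901 on the plus strand. KRT14 (ENSG00000186847.6) is at chr17:41582279-41586921, KRT15 (ENSG00000171346.16) at chr17:41513743-41522529 and KRT19 (ENSG00000171345.13) at chr17:41523617-41528308, all on the minus strand. KRT18 is the type I gene that lies in the type II cluster, next to its partner KRT8. KRT15 and KRT19, a basal and a simple keratin, are neighbours with 1087 bases between them.

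Promoter windows were at hand for KRT5 and KRT8, the type II chain of each pair, in the RefSeq table (GRCh38.p14, 250 bases before to 50 after the start), which matched 2 of the 7 genes and not KRT7, KRT14, KRT15, KRT18 or KRT19. They are shown so that a start region of each class can be read beside its levels. Both lie on the minus strand and are written 5′ to 3′, KRT5 at chr12:52520345-52520644 and KRT8 at chr12:52926420-52926719. Both strands were searched. Capitals mark matches to ATAAAA, a form of the core promoter element near many start sites, and to the p53-family half-site. That half-site is a part of the element that p53 and the basal-cell factor p63 bind.
KRT5: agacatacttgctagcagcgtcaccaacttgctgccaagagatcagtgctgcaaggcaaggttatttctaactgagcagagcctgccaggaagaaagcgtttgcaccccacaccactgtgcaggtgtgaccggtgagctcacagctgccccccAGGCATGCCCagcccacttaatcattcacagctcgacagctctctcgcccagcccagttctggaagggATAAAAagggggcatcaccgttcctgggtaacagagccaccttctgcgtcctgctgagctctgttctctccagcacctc
KRT8: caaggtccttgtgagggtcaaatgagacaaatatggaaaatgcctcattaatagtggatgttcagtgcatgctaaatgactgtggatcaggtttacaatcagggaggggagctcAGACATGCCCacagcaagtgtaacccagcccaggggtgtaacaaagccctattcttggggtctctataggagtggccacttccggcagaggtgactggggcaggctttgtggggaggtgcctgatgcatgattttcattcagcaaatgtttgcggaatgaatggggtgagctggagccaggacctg
In the KRT5 window, ATAAAA began at position -29 and the p53-family half-site at position -97, counted from 0 at the RefSeq start; the searched motifs did not overlap. In the KRT8 window the half-site began at position -136 and ATAAAA was not found. Of 35116 RefSeq windows of the same length, 16.0% held ATAAAA and 6.63% held the half-site, so a match is a description of these letters and not of a bound site. GGGCGG, the letters that factors of the SP1 family read, was in neither window and in 45.0% of all windows. The KRT8 RefSeq start lay 23355 bases from the start of the GENCODE principal transcript, so it may not be the start that these cells use; the KRT5 start lay 293 bases from its own.

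The basal pair KRT5 and KRT14 held the highest medians of the 7 per kilobase of transcript, at 3428 and 2291 CPM per kb. KRT5, the type II chain of the pair, stood at 19772, 274, 11502 and 5851 CPM in knockdown 1 to 4, and at 109, 16795, 5833 and 14186 CPM in control 1 to 4. Knockdown 2 and control 1 were the low libraries of their groups, and the remaining 6 libraries lay within 3.39-fold of each other. The groups overlapped, with means of 9350 ± 8324 CPM in knockdown and 9231 ± 7671 CPM in control libraries (SD, n = 4 each).

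KRT14, the type I chain of the pair, stood at 32387, 531, 28854 and 3352 CPM in knockdown 1 to 4, and at 281, 12498, 1117 and 4263 CPM in control 1 to 4. Knockdown 1 and 3 exceeded every control, knockdown 4 lay inside the control range and knockdown 2 lay below 3 of the 4 controls. KRT14 averaged 16281 ± 16661 CPM in knockdown libraries and 4540 ± 5576 CPM in control libraries (SD, n = 4 each). Its fitted log2 fold change of 2.28 (SE 1.68) was the largest of the 7 and stayed above 0 without any single library, between 1.75 and 3.52. It did not pass the edgeR quasi-likelihood test (adjusted p = 0.981 over all genes tested).

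KRT15, the further basal type I chain, stood at 512, 63.8, 35.4 and 879 CPM in knockdown 1 to 4, and at 6.09, 622, 1626 and 337 CPM in control 1 to 4. The lowest library, control 1, was 267-fold below the highest, control 3, and knockdown 3, which was high for KRT5 and KRT14, was low for KRT15. KRT15 averaged 373 ± 402 CPM in knockdown libraries and 648 ± 699 CPM in control libraries (SD, n = 4 each), and the groups overlapped.

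**Figure D1:**
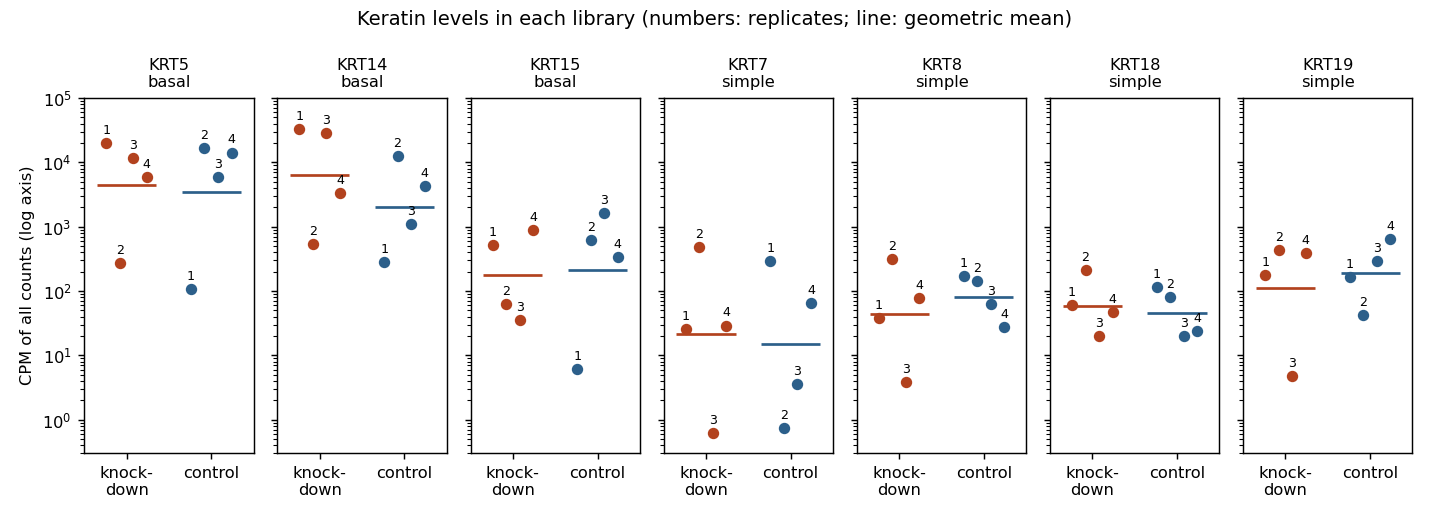
CPM of all counts on a log axis for each of the 7 keratins; each numbered point is a replicate library, knockdown left of control, and each line is the geometric mean of a group. The groups overlap in every panel. Knockdown 2 and control 1 are the lowest points for KRT5 and KRT14 and the highest for KRT7.

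The 4 simple keratins stood lower, with medians of 15.5 to 170 CPM per kb, and KRT7, KRT8 and KRT18 were highest in knockdown 2, where KRT5 and KRT14 were low. KRT7, a type II chain of ducts and glands, stood at 25.3, 476, 0.631 and 29.1 CPM in knockdown 1 to 4, and at 292, 0.744, 3.57 and 65.4 CPM in control 1 to 4. Knockdown 2 and control 1 held the highest values and knockdown 3 and control 2 the lowest. Those low values rest on 23 reads in knockdown 3 (Wilson 95% interval 0.420 to 0.947 CPM) and 46 reads in control 2 (0.558 to 0.993 CPM), intervals that cover counting error only. KRT7 averaged 133 ± 229 CPM in knockdown libraries and 90.4 ± 138 CPM in control libraries (SD, n = 4 each).

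KRT8 stood at 37.4, 313, 3.89 and 77.7 CPM in knockdown 1 to 4, and at 171, 141, 61.8 and 27.6 CPM in control 1 to 4. Its highest library was knockdown 2 and its lowest knockdown 3, an 80.5-fold span that held the whole control range inside it. KRT8 averaged 108 ± 140 CPM in knockdown and 100.4 ± 66.9 CPM in control libraries (SD, n = 4 each).

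KRT18, the partner of KRT8, stood at 60.2, 215, 20.2 and 46.8 CPM in knockdown 1 to 4, and at 115, 81.9, 20.2 and 24.2 CPM in control 1 to 4. Knockdown 2 was the highest library again, the groups overlapped, and the values spanned 10.7-fold, the narrowest range of the 7. KRT18 averaged 85.6 ± 87.9 CPM in knockdown and 60.4 ± 46.2 CPM in control libraries (SD, n = 4 each).

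KRT19 stood at 180, 440, 4.80 and 394 CPM in knockdown 1 to 4, and at 163, 41.7, 293 and 652 CPM in control 1 to 4. Knockdown 3 was the lowest of the 8 libraries here, as it was for KRT7 and KRT8, and the groups overlapped. KRT19 averaged 255 ± 202 CPM in knockdown and 287 ± 264 CPM in control libraries (SD, n = 4 each).

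None of the 7 keratins passed the test between knockdown and control, and no gene of the 21192 tested did (percent called 0). At an unadjusted p under 0.05, 4.78% of all tested genes passed in edgeR and none of the 7 keratins. By DESeq2, 0.523% of the 27904 genes that it gave an adjusted p passed the adjusted threshold. The log2 fold changes were 0.41 (SE 1.55) for KRT5, -0.54 (SE 1.32) for KRT15, 0.27 (SE 1.85) for KRT7, -0.00011 (SE 1.02) for KRT8, 0.44 (SE 0.79) for KRT18 and -0.13 (SE 1.07) for KRT19. The adjusted p-values ran from 0.981 to 1.0. In 6 of the 7, KRT14 being the exception, the sign of the fitted change turned when some single library was left out. The exact two-sided permutation test of each gene's CPM values, whose smallest possible p is 0.0286 here, gave p = 0.886 for KRT5, 0.314 for KRT14, 0.571 for KRT15, 0.8 for KRT7, 0.914 for KRT8, 0.686 for KRT18 and 0.857 for KRT19. The knockdown and control libraries overlapped for all 7, while 2.35% of all tested genes had groups without overlap (0.882% higher and 1.47% lower in knockdown). These tests do not show that the keratins were equal between groups: the SD of log2 values within a group ran from 1.19 to 3.44.

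**Figure D2:**
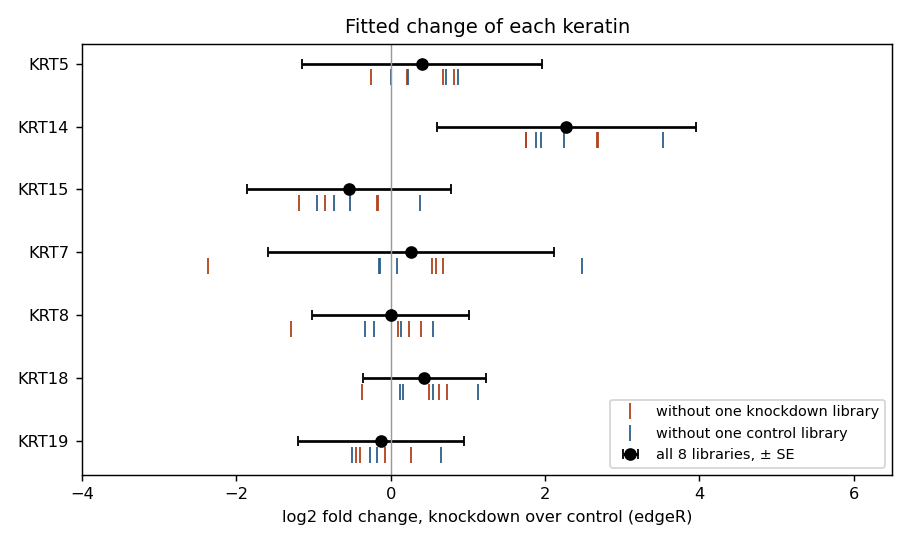
Log2 fold change, knockdown over control (edgeR), of each keratin: black points with bars of ± SE use all 8 libraries, and coloured ticks leave out a single knockdown or control library. KRT14 stands highest at 2.28, with all its ticks above 0, and for KRT7 the ticks run from -2.36 to 2.48.

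The balance of the 2 classes was then set out by library. The 3 basal keratins together took 5.27%, 0.0869%, 4.04% and 1.01% of counts in knockdown 1 to 4, and 0.0396%, 2.99%, 0.858% and 1.88% in control 1 to 4. Their 4 simple counterparts took 0.0303%, 0.144%, 0.00296% and 0.0547% in knockdown 1 to 4, and 0.0741%, 0.0266%, 0.0378% and 0.0769% in control 1 to 4. Basal keratin counts exceeded simple ones 174-, 1366- and 18.4-fold in knockdown 1, 3 and 4, and 113-, 22.7- and 24.4-fold in control 2, 3 and 4. In knockdown 2 and control 1 the ratio was 0.602 and 0.535, so simple keratins outnumbered basal ones there. The spread within each group was larger than the difference between them: on the log2 scale the ratio averaged 5.32 ± 4.76 in knockdown and 3.75 ± 3.28 in control libraries (SD, n = 4 each).

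Both libraries in which simple keratins prevailed were those with over 1% of counts in the salivary gland list. Of that list's 19 genes, 8 passed the filter on low counts. Its summed share ran from 0.00049% to 11.3% in knockdown libraries and from 0.000775% to 18.0% in control libraries, and LPO, BPIFA2, BPIFB2, MUC7, STATH, PIP and AMY1A were among the members at 0 in at least 1 library. LCN1 (a tear and saliva lipocalin) stood at 66024 CPM in control 1 and at most 0.391 CPM elsewhere; MUC5B, a gland mucin, stood at 60244 CPM in knockdown 2 and 3948 CPM in control 1, and at most 3.43 CPM elsewhere. PIGR, the receptor that carries antibodies across gland epithelium, was at 11004 CPM in knockdown 2 and 7707 CPM in control 1, and at most 3.25 CPM elsewhere. Knockdown 2 and control 1 also held 3.82% and 14.9% of counts in skeletal muscle genes. All keratins together took 0.285% and 0.137% of counts there, against 2.05% to 21.2% in the other libraries. Simple keratins took 0.0741% of counts in control 1, against 0.0266%, 0.0378% and 0.0769% in control 2 to 4. Basal keratins took 0.0396% in control 1, against 2.99%, 0.858% and 1.88% in control 2 to 4. The part of gland or muscle RNA in the basal-to-simple ratio was not tested. Without control 1 and knockdown 2, the knockdown minus control difference in mean log2 ratio was 2.03, against 1.56 in all 8. Single libraries moved it further, to -0.12 without knockdown 3 and to 3.58 without knockdown 2.

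**Figure D3:**
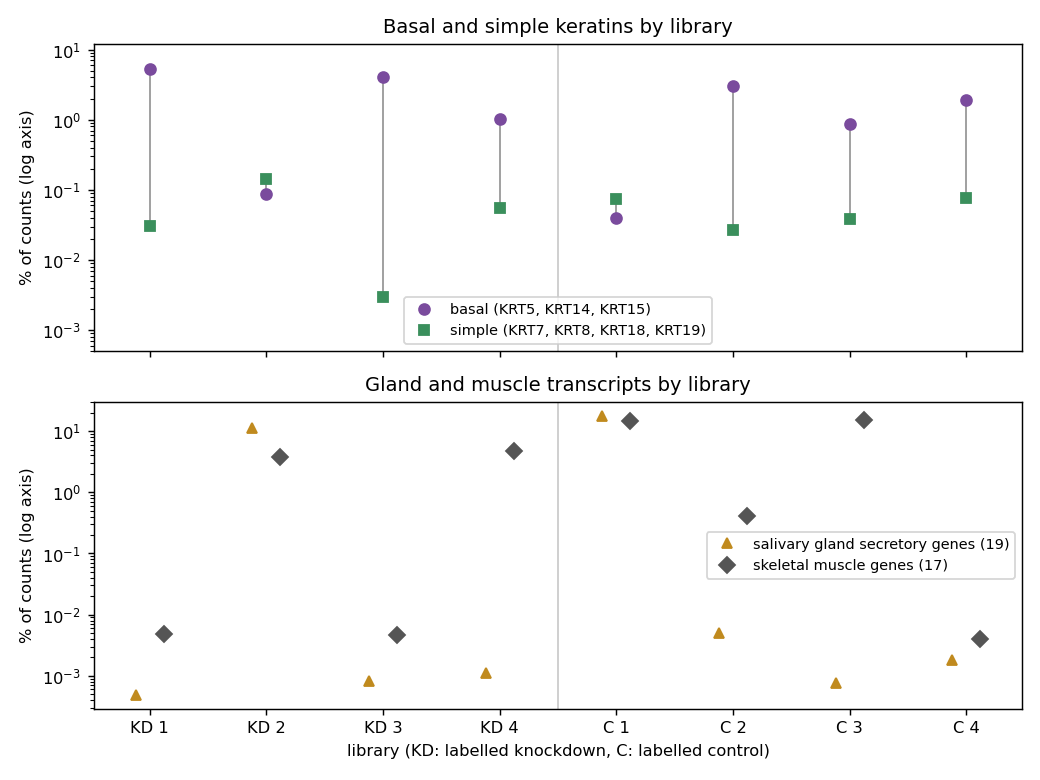
Percent of counts on log axes by library, knockdown (KD) left of control (C): above, the summed basal keratins (circles) and simple keratins (squares) joined by a line, and below, the summed salivary gland genes (triangles) and skeletal muscle genes (diamonds). Simple keratins stand above basal ones in KD 2 and C 1 only, the libraries with gland shares of 11.3% and 18.0%.

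Within the basal class the chains did not keep a fixed ratio. Per kilobase of transcript, KRT5 over KRT14 was 0.401, 0.339, 0.262 and 1.15 in knockdown 1 to 4, and 0.254, 0.882, 3.43 and 2.19 in control 1 to 4. Knockdown 4, control 3 and control 4 lay above 1 and the other libraries below it. KRT14 made up 61.5%, 61.1%, 71.4% and 33.2% of basal counts in knockdown 1 to 4, and 71.0%, 41.8%, 13.0% and 22.7% in control 1 to 4. KRT15 over KRT14 ran from 0.000851 in knockdown 3 to 1.01 in control 3.

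In the simple class, KRT8 over KRT18 was 0.503, 1.18, 0.156 and 1.34 in knockdown 1 to 4, and 1.20, 1.39, 2.48 and 0.924 in control 1 to 4. KRT7 over KRT19 was 0.112, 0.856, 0.104 and 0.0586 in knockdown 1 to 4, and 1.42, 0.0142, 0.00966 and 0.0795 in control 1 to 4. KRT19 made up 15.7% to 84.8% of simple counts, and KRT7 a share of 0.280% to 39.4%.

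**Figure D4:**
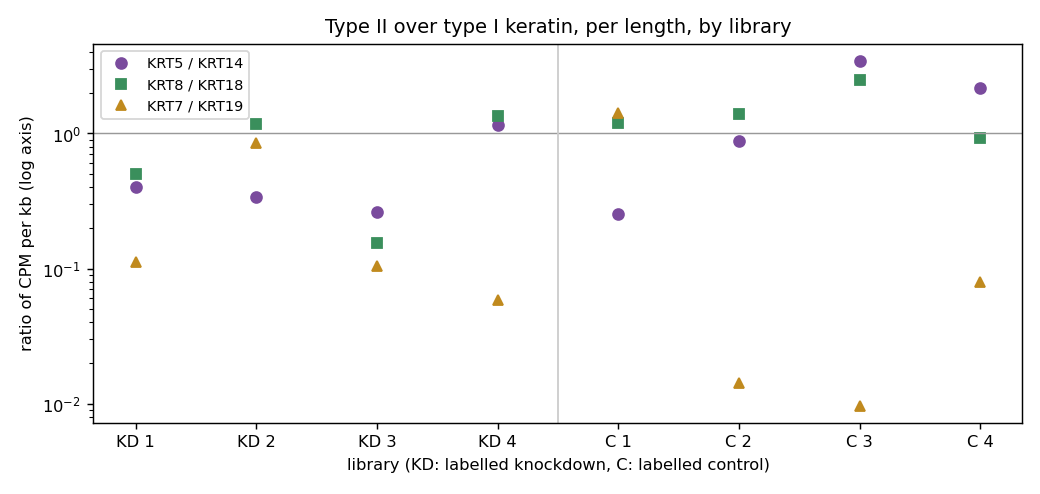
Ratio of a type II to a type I keratin in CPM per kb on a log axis, by library, knockdown (KD) left of control (C), with a line at 1; circles are KRT5 over KRT14, squares KRT8 over KRT18 and triangles KRT7 over KRT19. KRT5 over KRT14 lies above 1 in knockdown 4, control 3 and control 4, and KRT7 over KRT19 lies above 1 in control 1 alone.

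Ordered by the median over 8 libraries of CPM per kilobase of transcript, KRT5 (3428) led, then KRT14 (2291), KRT15 (177), KRT19 (170), KRT8 (39.8), KRT18 (37.7) and KRT7 (15.5). Only the step from KRT14 to KRT15 was larger than its spread, with a mean log2 difference of 4.73 ± 3.03 (SD over 8 libraries) and KRT14 the higher in 7 of 8. KRT19 exceeded KRT8 in 7 of 8 with a difference of 1.63 ± 1.94. The other neighbours did not differ beyond their spread: KRT5 exceeded KRT14 in 3 of 8 libraries, and KRT15 over KRT19, KRT8 over KRT18 and KRT18 over KRT7 each held in 5 of 8. With the union of all annotated exons as length, an alternative added after the data had been seen, KRT19 (101) passed KRT15 (60.1) and KRT18 (16.6) passed KRT8 (10.1).

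How alike the profiles were was described by the root mean square difference of mean-centred log2(CPM + 1), where 0 means that 2 genes move alike over the libraries. Over 8 libraries, pairs within the basal class differed by 1.34 to 2.81 and pairs within the simple class by 1.05 to 2.41, while pairs across the classes differed by 2.72 to 5.26. KRT8 and KRT18 were the closest pair, at 1.05, and KRT5 and KRT14 followed at 1.34. Without knockdown 2 and control 1, the cross-class range became 0.77 to 3.70, with KRT5 and KRT18 at 0.77 and KRT15 and KRT8 at 0.78. KRT8 and KRT18 then differed by 1.19 and KRT5 and KRT14 by 1.29.

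**Figure D5:**
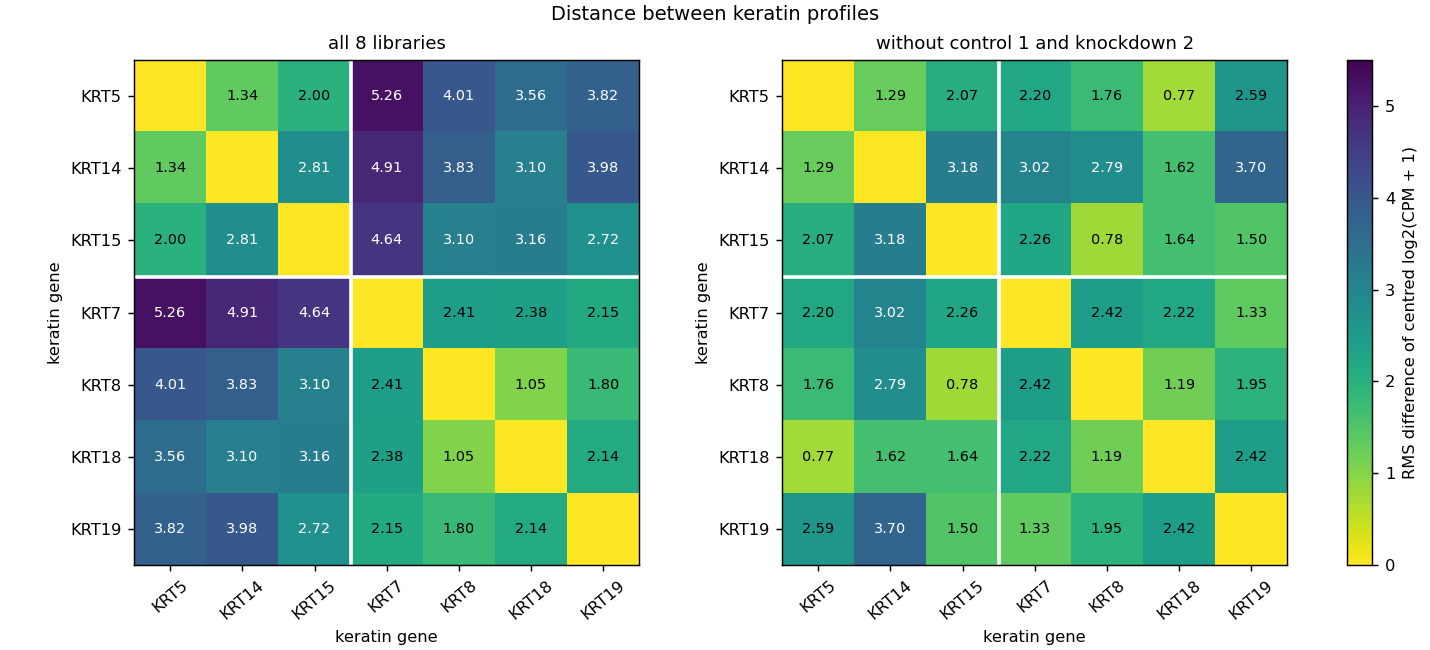
Root mean square difference of mean-centred log2(CPM + 1) between keratin profiles, over all 8 libraries at left and without control 1 and knockdown 2 at right, with lines between the basal and simple classes. Across the classes the distances run from 2.72 to 5.26 at left and from 0.77 to 3.70 at right.

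The 3 genes of most similar profile among 9771 others with a mean of at least 10 CPM were named for each keratin. KRT5 had IL20RB (0.49; an interleukin receptor subunit), S100A2 (0.58; a basal epithelial calcium-binding protein) and BNC1 (0.60; a basal keratinocyte transcription factor), and its partner KRT14 was 100th. KRT14 had SAMD9 (0.27; an interferon-inducible protein), MMP1 (0.52; a collagenase) and IFI27 (0.65; an interferon-inducible gene), with KRT5 137th. KRT15 had TOP2A, MKI67 and CENPF (0.96 to 1.07), all genes of dividing cells.

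KRT18 had SLITRK6 (0.27), SEC11C (0.43; a signal peptidase subunit) and SOX9 (0.43; a transcription factor of duct and progenitor cells), with KRT8 904th. KRT8 had A2M (0.63; a protease inhibitor), RBPMS (0.66; an RNA-binding protein) and METTL7A (0.66), with KRT18 131st. KRT7 had SIM2, CHRM3 (a muscarinic receptor of glands and smooth muscle) and AGFG2 (1.60 to 1.61), with KRT19 69th. KRT19 had MGST1 (0.60; a glutathione transferase), ZNF808 (0.79) and ZNF320 (0.89). The median distance of the pool ran from 1.33 for KRT18 to 3.03 for KRT7, so distances are not comparable between keratins.

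The other genes of keratin biology did not pass the test either. The 48 other keratins held 25 tested members, none called, of which 23 had a fitted fold change above 0, with a median log2 fold change of 2.59 against -0.05 over all tested genes, where 46.8% of genes had a fitted change above 0. At an unadjusted p under 0.05 stood 6 of the 25, against 4.78% of all tested genes. KRT6A, a stress and wound keratin, stood at 42476, 67.6, 37562 and 9222 CPM in knockdown 1 to 4, and at 10.4, 16359, 691 and 10255 CPM in control 1 to 4. Its partner KRT16 stood at 24973, 35.9, 23620 and 2692 CPM in knockdown 1 to 4, and at 3.62, 7606, 79.4 and 7487 CPM in control 1 to 4. The 7 keratins made up 9.93% to 81.2% of all keratin counts in knockdown libraries and 36.4% to 83.2% in control libraries. Of 22 filament partners, all were tested and 12 had a fitted value above 0; DSP, the plakin that ties keratins to desmosomes, averaged 7702 ± 5240 CPM in knockdown and 3597 ± 2901 CPM in control libraries (SD, n = 4 each), and its fitted log2 change was 1.46 (SE 1.30). DSG3, a desmosomal cadherin of stratified epithelium, averaged 2861 ± 2020 CPM in knockdown and 2696 ± 2960 CPM in control libraries (SD, n = 4 each), and its fitted log2 change was 0.45 (SE 1.68). At an unadjusted p under 0.05 stood 1 of these 22 genes. Of 20 adhesion and transcription factor genes of the basal layer, 10 lay above 0 and 10 below, and 0 had an unadjusted p under 0.05. EGFR, the receptor of epidermal growth factor, stood at 2783, 199.6, 334 and 451 CPM in knockdown 1 to 4, and at 115, 396, 453 and 11163 CPM in control 1 to 4. Control 4 stood far above the others, the groups overlapped, and the log2 fold change was -1.37 (SE 1.51). COL17A1, a hemidesmosome collagen of basal cells, stood at 1308, 239.9, 601 and 1038 CPM in knockdown 1 to 4, and at 85.1, 525, 1239 and 199.9 CPM in control 1 to 4, with overlap and a log2 fold change of 0.98 (SE 0.84). Of 22 simple and glandular genes, 21 were tested and 18 lay above 0, none passing, with a median of 0.78, and 4 had an unadjusted p under 0.05. Of these, CD24, a surface glycoprotein, stood at 1144, 842, 837 and 1269 CPM in knockdown 1 to 4, and at 304, 582, 245 and 635 CPM in control 1 to 4, without overlap. ELF3, an epithelial transcription factor named after its values were seen, was the other of these 21 genes without overlap, with a log2 fold change of 1.66 (SE 0.32, edgeR adjusted p = 0.981). Of all tested genes, 2.35% had groups without overlap and 0.882% were higher in knockdown without overlap.

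Reads of some of these genes cannot be assigned with certainty. KRT8 and KRT18 overlap on opposite strands over 525 exon bases, 16.3% of KRT18 exons and 7.63% of KRT8 exons, and the strand setting of the counting is not given in the sources used here, so reads there cannot be told apart. KRT8 has 51 pseudogene rows and KRT18 has 68. The pseudogenes held 2.96% of the KRT8 total in knockdown 2 and 59.7% in knockdown 3, the library with the lowest KRT8. KRT18 pseudogenes held 6.10% to 27.9% of the KRT18 total. KRT14 shares 23.8% of its 50-base windows with transcripts of 12 other genes, 11.2% with KRT16, so its count is uncertain. KRT7 shares 282 exon bases with the antisense gene KRT7-AS, which stood at 0 to 13.9 CPM in knockdown and 0 to 6.14 CPM in control libraries, highest in knockdown 2 and control 1.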

How the data were processed

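The authors deposited a table of whole-number read counts per gene for the 8 libraries, with no normalisation. Per the submitters' processing notes, the tools were STAR and featureCounts of the Subread package, on hg38. The versions, the annotation and whether counting used strand were not given in the sources used here. Treated columns are called KO in the table and KD in the titles, and columns were matched by group and number. Symbols were matched to 62666 of 63241 rows, and 575 had none.

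CPM used column totals. Knockdown was compared with control in edgeR 4.0.16 (quasi-likelihood test, TMM, filterByExpr; R 4.3.3). A gene was called at a p under 0.05 after Benjamini-Hochberg adjustment over 21192 genes, and all 7 keratins passed the filter. DESeq2 1.42.0 and voom in limma 3.58.1 were alternatives, Wilson intervals used scipy 1.17.1, and exact permutation tests enumerated all 70 splits of the CPM values of a gene. Leaving out libraries, a replicate block, other scalings and no filter were tried as well; per-kilobase sums and exon-union lengths were added after seeing the data. The edgeR fit was tested on simulated data, where small fold changes were missed at the spread of these libraries. Lengths are those of the shortest principal coding transcript of GENCODE release 29. The members, lists and rules were chosen with earlier results of these data known. Named were COL1A1, the keratins, the called or otherwise the 2 most abundant members of each list, the 3 nearest profiles of each keratin, and genes that mark libraries standing apart. ELF3, COL6A3, LEP, SPRR2F and KRT7-AS fall outside this rule and were named after their values were seen.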

Additional observations from a re-analysis of the deposited data

Results flagged for a closer look

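KRT7 stood at 475.8 CPM in knockdown 2, far from the other 3 knockdown libraries, of which the nearest was at 29.1 CPM and the lowest at 0.631 CPM. The gap to the nearest library made up 0.94 of the range, above Dixon's 95% critical value for a group of 4. It was the only value to stand apart in 20 such checks of a group, and chance marks about 1 in 20. COL1A1 and EGFR, for which control 2 and control 4 stood far above the other controls, were not among these checks. For KRT7 the check used CPM, and its outcome depends on that scale. On log2(CPM + 1), knockdown 1 to 4 stood at 4.72, 8.90, 0.71 and 4.91. There knockdown 3 lay about as far below the middle libraries as knockdown 2 lay above them. Knockdown 2 is also the knockdown library with 11.3% of counts in salivary gland genes, whose part in the KRT7 value was not tested. Without it, the KRT7 log2 fold change was -2.36, against 0.27 in all 8 libraries.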

How the results depend on the processing

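None of the 7 keratins passed the threshold under any alternative run, and the smallest adjusted p over them was 0.41 in edgeR, DESeq2 and limma fits. Over all genes, edgeR called 0 (1013 at an unadjusted p under 0.05), limma-voom 0 (876) and DESeq2 146. Leaving out single libraries gave 0 to 1 called genes, and leaving out control 1 and knockdown 2 gave 1. That gene was SPRR2F in both cases, which the filter leaves out of the fit of all 8. The direction of a keratin's fold change turned in 18 of 112 alternative values. Of these, 6 were for KRT8, whose main value of -0.00011 has hardly a direction to turn. Leaving out single libraries, the log2 fold change ran from -0.26 to 0.87 for KRT5, 1.75 to 3.52 for KRT14, -1.19 to 0.39 for KRT15, -2.36 to 2.48 for KRT7, -1.29 to 0.55 for KRT8, -0.38 to 1.13 for KRT18 and -0.50 to 0.65 for KRT19. KRT8 was at 0.11 with library totals. KRT7 was at -0.14 without control 1 and knockdown 2, and at -1.02 without control 1, control 3, knockdown 2 and knockdown 4. In that last run KRT14 was at 2.34 (SE 0.77, edgeR unadjusted p = 0.024, adjusted p = 0.41). There 2366 of 22260 tested genes had an unadjusted p under 0.05. With the replicate number as a block, 0 genes were called (352 at an unadjusted p under 0.05) and KRT7 was at -1.02. Deviations from the group means of log2 CPM correlated at -0.64 to -0.37 between same-numbered libraries. By this measure 0 of 8 libraries correlated best with their own number. Such deviations also carry the muscle and gland differences between libraries, so they cannot decide whether the numbers pair the libraries. Permutation tests on log2(CPM + 1), a scale added after the data had been seen, gave exact p of 0.4 to 0.914, and for KRT8 (p = 0.657) the knockdown mean was the lower there and the higher in CPM. The basal-to-simple difference in mean log2 ratio ran from -0.12 without knockdown 3 to 3.58 without knockdown 2. With the mean of log2 values of each class in place of its sum, it was 0.73, against 1.56 with sums. The cause of these changes was not tested. Counting depth limited only KRT7, at under 50 reads in knockdown 3 and control 2.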

Other observations

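Lists of other cell types held no called gene (edgeR, adjusted p under 0.05), and their fitted log2 fold changes, knockdown over control, are given as medians. Over all tested genes, 46.8% lay above 0, 4.78% had an unadjusted p under 0.05 and 2.35% had groups without overlap (1.47% lower in knockdown). All 16 tested skeletal muscle genes lay below 0, with a median of -1.91, and 0 had an unadjusted p under 0.05. TTN, the giant sarcomere protein, stood at 17.4 to 30587 CPM in knockdown and 21.2 to 97646 CPM in control libraries, and NEB, the thin filament protein nebulin, at 6.01 to 4540 CPM in knockdown and 4.998 to 14801 CPM in control libraries. The 8 tested salivary gland genes had 4 above and 4 below 0, with a median of 1.30, and 1 had an unadjusted p under 0.05. Of 11 smooth muscle and myoepithelial genes, 3 lay above 0, with a median of -0.43. The most abundant of them, TPM2 (a tropomyosin) and SYNPO2 (an actin-binding protein), were at -1.77 (SE 1.66) and -1.74 (SE 1.69).

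Of 12 fibroblast genes, 11 lay below 0, with a median of -1.83, and 6 had an unadjusted p under 0.05. COL1A2, the partner chain of COL1A1, stood at 127 to 244 CPM in knockdown and 214 to 5108 CPM in control libraries, and COL3A1, another fibrillar collagen, at 146 to 234 CPM in knockdown and 105 to 5116 CPM in control libraries; control 2 was the highest for both. COL6A3, named after its values were seen, was the 1 fibroblast gene with groups without overlap. Of 9 endothelial genes, 4 lay above 0, with a median of -0.16; VWF was at 0.04 (SE 0.52) and PECAM1 at -0.22 (SE 0.54). Of 9 tested leukocyte genes, 3 lay above 0, with a median of -0.63; CSF1R was at -1.50 (SE 0.57) and LAPTM5 at -1.53 (SE 0.78). All 7 adipocyte genes lay below 0, with a median of -1.83, and 2 had an unadjusted p under 0.05; FABP4 was at -2.64 (SE 0.95) and GPD1 at -2.02 (SE 1.65). LEP, also named after its values were seen, was the 1 adipocyte gene with groups without overlap.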
